A study of Mus musculus with 32 samples.

Results

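The glycogen metabolism genes described here were 9 genes that build, break down or regulate glycogen: Gyg, Ugp2, Gys1, Gys2, Gbe1, Pygl, Pygb, Ppp1r3b and Ppp1r3c. They were chosen by name, as the rows of the gene count table whose Ensembl identifier maps to these symbols, out of 50686 genes in the table. All 9 were found and all 9 passed the filter on low counts, which 15505 genes passed. The RNA was from male C57BL/6J mice aged 10 weeks, fed chow in mild cold with alternating light and dark, and the tissue was iBAT, the brown fat that lies between the scapulae and makes heat. Mice were killed every 3 h from ZT0 to ZT21, where ZT (Zeitgeber time) is the number of hours since the lights came on and the dark phase, in which mice are active, starts at ZT12. Each of the 8 time points had 4 mice and each mouse gave 1 RNA-sequencing library. All mice were of 1 strain, sex, age and diet, so the time of collection was the only labelled difference between groups apart from the sequencing lane: ZT0, ZT3 and ZT6 were run on lane 2, ZT9, ZT12 and ZT15 on lane 3, and ZT18 and ZT21 on lane 4. Between lanes, lane and time of day cannot be told apart.

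Glycogen is a branched polymer of glucose that cells keep as a quickly usable store. Glycogenin starts the chain, UDP-glucose supplies the units, glycogen synthase extends the chain and the branching enzyme adds branch points, while glycogen phosphorylase releases glucose 1-phosphate from the chain ends. Targeting subunits of protein phosphatase 1 (PP1) bring the phosphatase to the glycogen particle, where removal of phosphate activates the synthase and inactivates the phosphorylase, and in brown fat the store is known to be drawn on and refilled with cold and feeding.

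Library totals ran from 16300770 to 18254659 counts, and the 9 genes each had between 407 and 25310 counts in every library. The CPM of each of the 9 genes were counts relative to the TMM-scaled library size. Marker sums, and the sum of the 9 genes, were counts relative to the unscaled library total, so their CPM are on a different scale. The labelled tissue was checked by its markers. The 10 brown adipocyte genes summed to between 10450 and 15130 CPM in every library, whereas 8 hepatocyte genes summed to between 0.614 and 1.54 CPM. The summed level of 12 skeletal muscle genes, in contrast, ran from 4.38 to 8449 CPM, and each time point held mice both under (1 at ZT15, 2 or 3 at the others) and over 1000 CPM. White adipocyte markers summed to between 45.7 and 452.5 CPM, with 45.7 to 77.0 CPM at ZT6 and 208.4 to 452.5 CPM at ZT15, blood markers to between 262 and 1213 CPM, macrophage markers to between 42.9 and 264 CPM, and endothelial markers to between 578 and 953 CPM. Their part in the results was not tested. The white adipocyte list holds Lep and Nnat, which the authors report as oscillating in iBAT. In that sum, a daily change of these genes and white fat content cannot be told apart. Because of the spread in muscle RNA, the tests were also run on the 17 libraries under 1000 CPM of muscle markers alone, which was chosen after seeing the data. In whole tissue, fewer cells of a type and less RNA per cell cannot be told apart.

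By JTK, a rank test for oscillation with templates of 21 and 24 h, 7 of the 9 genes oscillated at P under 0.05, where 36.4% of all 15505 tested genes did. With P adjusted by Benjamini-Hochberg (BH) over the 15505 genes, the same 7 were past 0.05, against 27.1% of all genes. The 2 genes outside the call were Gbe1, the branching enzyme (exact JTK P = 0.146), and Gys2, the liver isoform of glycogen synthase (exact JTK P = 1). The 7 calls at P under 0.05 were kept in each of the 40 alternatives tried, also in the 17 libraries with little muscle RNA, where 3306 of all genes were called in place of 5641. After BH adjustment, however, only Pygb and Ppp1r3b passed in those 17 libraries (adjusted exact JTK P = 0.0074 for each), and Gys1 (0.0509), Ppp1r3c (0.0957), Pygl (0.119), Gyg (0.170) and Ugp2 (0.187) did not. With edgeR's quasi-likelihood test a 24 h cosine was likewise past an adjusted p of 0.05 for the same 7 genes, where 36.1% of all genes had one. The fitted amplitude on the log2 scale had a median of 0.25 over the 9 genes and of 0.14 over all tested genes. With lane as a further factor, 17.2% of all genes and 4 of the 9 kept a cosine: Gys1, Pygb, Ppp1r3b and Ppp1r3c.

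The peaks were spread over the day. Ppp1r3b and Ppp1r3c, both PP1 targeting subunits, peaked in the dark phase at ZT18.7 (SE 0.598 h and 0.658 h). Ugp2 followed at ZT21.6 (SE 0.777 h), and Pygl, the liver isoform of glycogen phosphorylase, peaked near lights on at ZT0.410 (SE 0.931 h). Gyg peaked in the early light phase at ZT4.67 (SE 0.659 h), followed by Pygb, the brain isoform of phosphorylase, at ZT7.79 (SE 0.487 h) and Gys1, the muscle isoform of the synthase, at ZT9.07 (SE 0.530 h). The transcripts of the synthase Gys1 and of the PP1 subunits thus peaked in the light and in the dark phase, respectively.

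**Figure D1:**
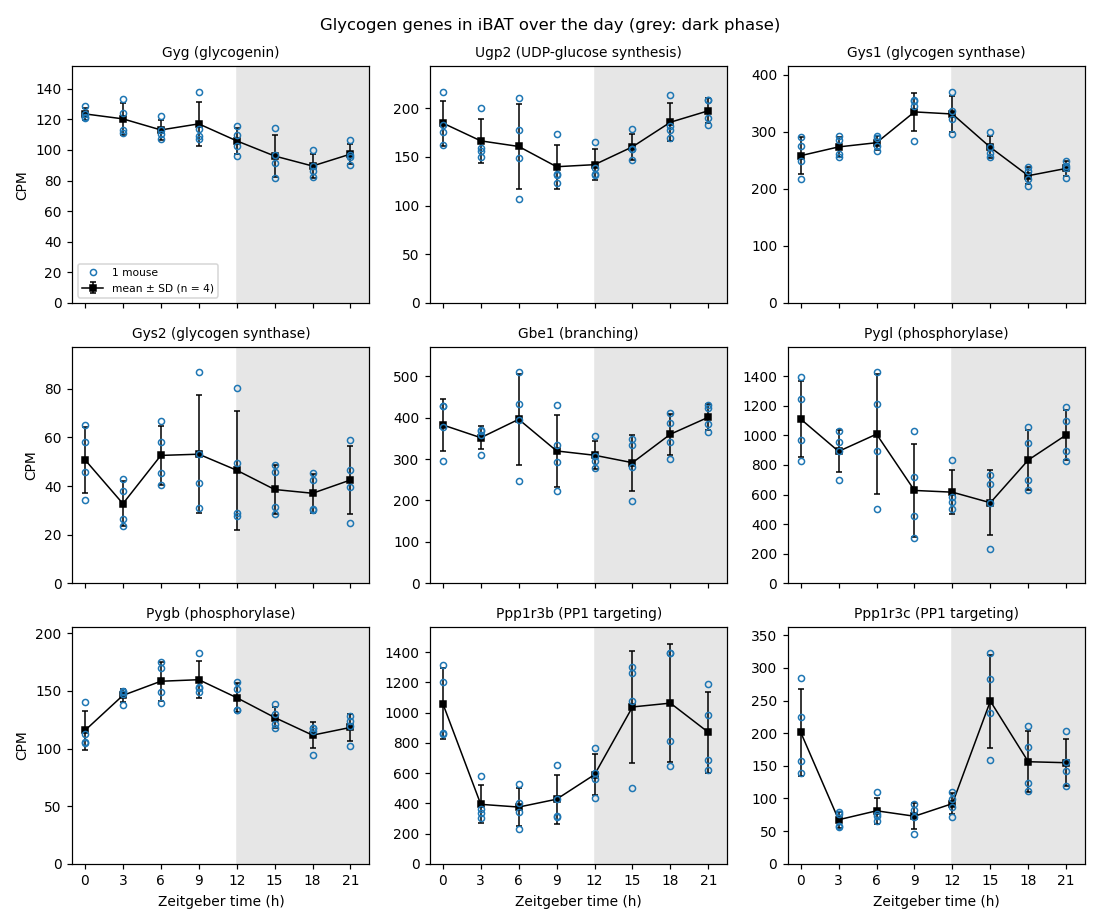
Levels of the 9 genes in CPM (linear axes from 0) against Zeitgeber time in hours; open circles are mice, black squares and bars the mean ± SD of 4 mice, and the grey area is the dark phase. Ppp1r3b and Ppp1r3c were low from ZT3 to ZT12 and high from ZT15 to ZT0, whereas Gys1 and Pygb had their highest means at ZT9 and their lowest at ZT18, and Gys2 varied more between mice than between times.

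**Figure D2:**
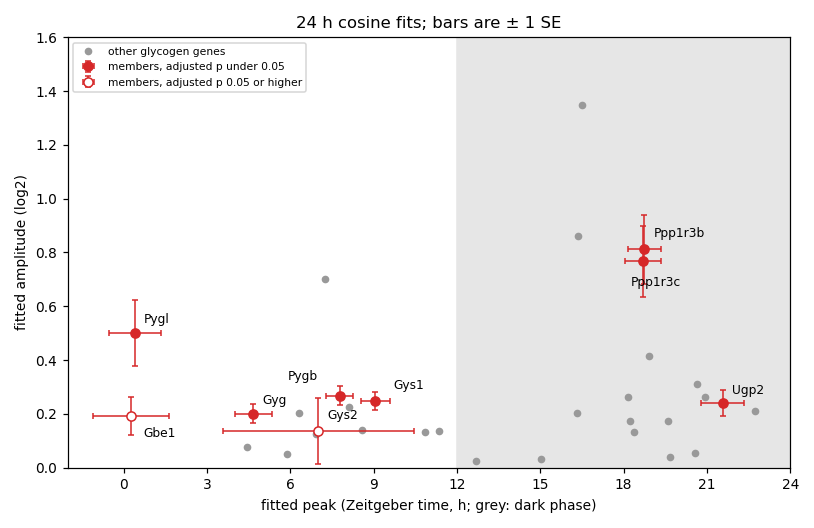
Fitted 24 h amplitude (log2 scale) against fitted peak time (Zeitgeber time, hours) for the 9 genes in red, with bars of ± 1 SE, and for the 24 other glycogen genes in grey. Ppp1r3b and Ppp1r3c lie together at ZT18.7 with amplitudes of 0.81 and 0.77, and Gbe1 and Gys2 are drawn open because their adjusted p was 0.0734 and 0.491.

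The PP1 targeting subunits had the largest ratios of highest to lowest time point mean among the 9 genes (3.70 for Ppp1r3c and 2.83 for Ppp1r3b, followed by 2.04 for Pygl). Ppp1r3b (chr8:35375739-35388139, plus strand, GRCm38), was known first as the liver subunit. Its 4 mice had 857, 864, 1202 and 1313 CPM at ZT0. At ZT3 they had 301, 334, 359 and 578 CPM, so the 2 time points did not overlap. Levels stayed low at ZT6, with 229.8, 342, 399 and 529 CPM. At ZT9 they were 308, 316, 427 and 656 CPM, and at ZT12 438, 558, 599 and 763 CPM. The level was high again at ZT15 in 3 of the 4 mice, with 504, 1079.6, 1260.2 and 1304 CPM. At ZT18 the mice had 647, 813, 1392 and 1397 CPM, and at ZT21 618, 683, 986 and 1189 CPM. The low mouse at ZT15 was replicate 1, which had the highest summed level of all libraries for both skeletal muscle (8449 CPM) and white adipocyte markers (452.5 CPM); their part in its value was not tested. From the lowest to the highest time point (ZT6 to ZT18) the mean went from 375 ± 124 to 1062 ± 389 CPM (SD, n = 4 each), and the cosine fit gave a change from trough to peak of 3.08-fold.

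The same gene could be compared within lanes. On lane 2, where 12.6% of all genes differed over ZT0, ZT3 and ZT6, Ppp1r3b did (edgeR, adjusted p = 0.0047). Its level fell by 1.43 on the log2 scale from ZT0 to ZT3 (SE 0.262, adjusted p = 0.0105 in edgeR, where 9.45% of all genes passed), and by 1.50 from ZT0 to ZT6 (SE 0.263, adjusted p = 0.0045, where 11.9% passed). From ZT3 to ZT6 it did not pass (log2 fold change -0.066, adjusted p = 0.944 in edgeR), as was so for Ppp1r3c (0.27, adjusted p = 0.657), a step at which 0.451% of all genes passed. On lane 3, where 1.78% of all genes differed over ZT9, ZT12 and ZT15, it missed the threshold (edgeR, adjusted p = 0.103) and passed without ZT15 replicate 1 (adjusted p = 0.0174). The step from ZT9 to ZT15 was 1.29 on the log2 scale (SE 0.313, adjusted p = 0.0482 in edgeR, where 2.99% of all genes passed), while that from ZT12 to ZT15 was 0.82 (SE 0.310) and did not pass (adjusted p = 0.261). The test over lane 3 also missed with the muscle level as a covariate (adjusted p = 0.233 in edgeR) and with a replicate block (0.202), and passed in the fit of all libraries (0.0276) and in DESeq2 (0.0028). Between time points that shared a lane, the fall of Ppp1r3b in the early light phase thus passed, whereas its later increase passed only from ZT9 to ZT15.

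Ppp1r3c (chr19:36731731-36736653, minus strand), which encodes PTG, the protein targeting to glycogen, was lower than Ppp1r3b in all 32 libraries per kilobase of exonic sequence. Its mice had 139, 158, 225 and 285 CPM at ZT0 and 56.2, 57.8, 75.6 and 80.0 CPM at ZT3, with no overlap. At ZT6 they had 65.3, 73.1, 76.5 and 109.5 CPM. At ZT9 they had 46.3, 71.0, 81.7 and 92.1 CPM, and at ZT12 72.0, 86.7, 99.0 and 111 CPM. All 4 mice at ZT15, with 159, 230.5, 283 and 324 CPM, were above all 16 mice of the time points from ZT3 to ZT12. At ZT18 the values were 112, 124, 179.5 and 210.3 CPM, and at ZT21 119, 142, 156 and 203 CPM, again above every mouse of ZT3 to ZT12. The highest time point mean was 249 ± 71.1 CPM at ZT15 and the lowest 67.4 ± 12.1 CPM at ZT3 (SD, n = 4 each), a ratio of 3.70. Ppp1r3c thus reached its highest mean 3 h after lights off, earlier than its fitted peak at ZT18.7.

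Within lanes the differences in Ppp1r3c were past the threshold on lane 2 (edgeR, adjusted p = 0.0025) and on lane 3 (edgeR, adjusted p = 0.0047), the only one of the 9 genes to differ on lane 3. It fell by 1.58 on the log2 scale from ZT0 to ZT3 (SE 0.231, adjusted p = 0.0044 in edgeR) and by 1.31 from ZT0 to ZT6 (SE 0.229, adjusted p = 0.0045). It rose by 1.44 from ZT12 to ZT15 (SE 0.242, adjusted p = 0.0223 in edgeR), a step at which 0.626% of all genes passed. From ZT9 to ZT15 it rose by 1.78 (SE 0.245, adjusted p = 0.0035). With the log2 muscle level as a covariate, the adjusted p of Ppp1r3c on lane 3 was 0.0216 in edgeR; of the libraries with little muscle RNA only 1 was from ZT15, too few to test a rise there. ZT18 and ZT21, on lane 4, differed for none of the 9 genes, where 4.02% of all genes differed: the lowest unadjusted p in edgeR was 0.128, for Gyg, so none was under 0.05, and DESeq2 called 0 as well. With the muscle level as a covariate, where 999 of all genes were called in place of 624, 2 were called on lane 4, Pygl (log2 fold change 0.40, adjusted p = 0.0033 in edgeR) and Gbe1 (0.23, adjusted p = 0.0304).

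The promoters of the 9 genes were read for motifs that clock factors are known to bind. RefSeq start windows, each from 250 bases before to 50 after a transcription start (GRCm38.p6), were found for 7 of the 9 genes and searched on both strands for the E-box CACGTG, bound by CLOCK and BMAL1, for AGGTCA, the core letters bound by REV-ERB and ROR receptors, and for the D-box TTATGTAA, bound by DBP and its relatives. Of all 32851 windows, 7.15% held the E-box, 16.3% held AGGTCA and 0.938% held the D-box. Among the 7 genes, the E-box was in the windows of Ppp1r3c and Gyg, AGGTCA was in that of Pygl, and the others (Gys1, Gbe1, Pygb and both windows of Ugp2) held none of them, nor did any hold the D-box. A match is a description of letters and not of binding. The 3 windows with a match are shown 5′ to 3′ on the strand of the gene, with the match in capitals, because they belong to members that peaked at different times (ZT18.7, ZT4.67 and ZT0.410). They lie at chr19:36736555-36736854 (Ppp1r3c, minus strand), chr3:20155067-20155366 (Gyg, minus strand) and chr12:70227634-70227933 (Pygl, minus strand).
Ppp1r3c: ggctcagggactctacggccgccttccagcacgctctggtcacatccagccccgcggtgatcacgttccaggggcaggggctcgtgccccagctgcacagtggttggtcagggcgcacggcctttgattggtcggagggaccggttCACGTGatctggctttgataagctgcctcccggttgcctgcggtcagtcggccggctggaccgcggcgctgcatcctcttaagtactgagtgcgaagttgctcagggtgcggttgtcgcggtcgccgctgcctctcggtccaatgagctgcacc
Gyg: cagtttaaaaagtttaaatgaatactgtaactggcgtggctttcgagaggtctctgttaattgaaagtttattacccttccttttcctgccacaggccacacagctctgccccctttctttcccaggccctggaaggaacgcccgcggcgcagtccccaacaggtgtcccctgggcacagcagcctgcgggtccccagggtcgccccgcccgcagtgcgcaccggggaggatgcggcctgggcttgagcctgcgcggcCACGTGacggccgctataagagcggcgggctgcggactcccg
Pygl: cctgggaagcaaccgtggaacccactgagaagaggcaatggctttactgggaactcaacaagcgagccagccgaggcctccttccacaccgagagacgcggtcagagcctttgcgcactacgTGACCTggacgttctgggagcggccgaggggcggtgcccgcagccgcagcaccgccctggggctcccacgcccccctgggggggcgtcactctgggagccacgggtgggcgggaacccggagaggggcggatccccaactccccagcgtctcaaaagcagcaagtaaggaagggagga
Counted from 0 at the first transcribed base, the match began at position -104 in Ppp1r3c, at 8 in Gyg and at -128 in Pygl, where the capitals are the reverse complement of AGGTCA. The RefSeq starts used for all 3 lie inside the gene as annotated in GENCODE, not at its outermost start, so the positions hold for the RefSeq starts only.

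Gyg and Ugp2 encode the enzymes that begin and feed the chain. Their ratios of highest to lowest time point mean were 1.38 and 1.41, near those of Gbe1 (1.38), Pygb (1.43) and Gys1 (1.50). Gyg (chr3:20122084-20155317, minus strand) encodes glycogenin, the self-glucosylating primer of the chain. Its mice had 121, 121, 124 and 129 CPM at ZT0, 111, 113, 124 and 133 CPM at ZT3, and 107, 110.3, 113 and 122 CPM at ZT6. At ZT9 they had 107, 109, 114 and 138 CPM, at ZT12 96.2, 103, 109.7 and 115 CPM and at ZT15 82.0, 91.5, 96.5 and 114 CPM. The lowest mean was at ZT18, with 82.3, 86.4, 89.3 and 100.0 CPM, followed by ZT21 with 90.4, 95.7, 96.8 and 106 CPM. All mice of ZT0 were above all mice of ZT18, and the means differed 1.38-fold (124 ± 3.66 against 89.5 ± 7.58 CPM, SD, n = 4 each). Gyg differed between time points (edgeR, adjusted p = 0.00077, a test that 39.8% of all genes passed), but not in the libraries with little muscle RNA (adjusted p = 0.0754) and on no lane alone, where its adjusted p was between 0.382 and 0.413, and beside lane its cosine missed the threshold (edgeR, adjusted p = 0.0518), with an amplitude of 0.25 in place of 0.20 and a peak at ZT2.46. In the libraries with little muscle RNA the cosine passed (amplitude 0.20, adjusted p = 0.0249 in edgeR).

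Ugp2 (chr11:21321138-21371201, minus strand) encodes UDP-glucose pyrophosphorylase, which makes the glucose donor. Its mice had 183, 189.6, 208 and 208 CPM at ZT21, the highest time point, and 123, 131, 132 and 173 CPM at ZT9, the lowest, with no overlap. In between lay ZT0 with 163, 176, 183 and 217 CPM and ZT18 with 169, 178, 182 and 213 CPM. At ZT3, ZT6, ZT12 and ZT15 the lowest mouse had 107 CPM and the highest 210.0 CPM, both at ZT6. The difference between time points was weak (edgeR, adjusted p = 0.0378) and was lost in 12 of the 32 fits that left out a library, with adjusted p up to 0.0699, and in the libraries with little muscle RNA (0.293), while its cosine (amplitude 0.24, SE 0.0487, adjusted p = 0.0014 in edgeR) was lost only beside lane (adjusted p = 0.265). A stretch of 78 exonic bases of Ugp2 is shared with a gene on the other strand that had 14 counts in all.

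Glycogen synthase is the step that extends the chain. Gys1 (chr7:45434844-45456619, plus strand) had 217, 248, 276 and 291 CPM at ZT0, 256, 261, 285 and 292 CPM at ZT3 and 267, 275, 289 and 293 CPM at ZT6. It was highest at ZT9, with 284, 346, 353 and 355 CPM, and at ZT12, with 295, 322, 337 and 370.2 CPM. All mice of ZT12 were above all mice of ZT6, the next time point in the order of means. At ZT15 the mice had 255, 262, 274 and 299 CPM, at ZT18 205, 217, 232 and 238 CPM, and at ZT21 218, 236, 241 and 248 CPM. The mean thus went from 335 ± 33.8 CPM at ZT9 to 223 ± 14.6 CPM at ZT18 (SD, n = 4 each), a ratio of 1.50. Its cosine was past the threshold in all 42 alternatives (amplitude 0.25, SE 0.0345, adjusted p = 9.75e-06 in edgeR), although beside lane the fitted peak was at ZT5.76 in place of ZT9.07. The test over the time points (edgeR, adjusted p = 2.69e-05) was lost in the libraries with little muscle RNA (0.0747). Within lane 3 it missed the threshold (edgeR, adjusted p = 0.215) in the fit of that lane, and passed in the fit of all libraries (adjusted p = 0.0478). Gys1 shares 310 exonic bases with Ruvbl2 on the other strand, and whether the counting used the strand was not given in the sources used here.

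Gys2 (chr6:142422613-142473109, minus strand), the synthase isoform of the liver, was the lowest of the 9 genes, with a mean over the 32 mice of 16.7 CPM per kilobase against 57.7 CPM per kilobase for Gys1. Gys1 was above Gys2 per kilobase in all 32 libraries, by 2.26- to 6.16-fold. The mice of ZT9 had 30.9, 41.4, 53.3 and 86.9 CPM and those of ZT12 27.6, 29.0, 49.4 and 80.2 CPM. ZT3 had the lowest mean, with 23.6, 26.5, 38.1 and 42.8 CPM, and ZT0 had 34.3, 45.8, 58.1 and 65.1 CPM. The mice of 1 time point therefore differed by up to 2.9-fold, and the highest and lowest time points overlapped. At the other times (ZT6, ZT15, ZT18 and ZT21) the values lay between 25.0 and 66.8 CPM. Gys2 passed none of the tests over all time points (cosine amplitude 0.14, SE 0.123, adjusted p = 0.491 in edgeR), so a daily change was not detected beside this spread between mice. On lane 2 it missed the threshold in edgeR (adjusted p = 0.107) but passed without ZT0 replicate 4 (0.0455) and in DESeq2 (0.0344).

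Gbe1 (chr16:70313949-70569716, plus strand), the branching enzyme, had its highest mean at ZT21, with 366, 384, 424 and 430.3 CPM, and its lowest at ZT15, with 199.9, 281, 335 and 349 CPM. These 2 time points did not overlap, and their means were 401 ± 31.1 and 291 ± 67.5 CPM (SD, n = 4 each). At ZT6 the mice ranged from 248 to 509.7 CPM and at ZT9 from 222 to 429.9 CPM, which is nearly the range of all 32 mice. The cosine missed the threshold (amplitude 0.19, SE 0.0689, adjusted p = 0.0734 in edgeR), but passed without ZT0 replicate 2 (adjusted p = 0.0366), without ZT9 replicate 1 (0.0374) and without ZT6 replicate 4 (0.0497).

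The phosphorylases release glucose from the store. Pygl (chr12:70190811-70231488, minus strand), known from liver, was together with Ppp1r3b the most abundant of the 9 transcripts, at means of 120.3 and 117 CPM per kilobase, and Pygl was the higher in 15 of the 32 libraries, so that they were not ordered. Its mice had 829, 971, 1243 and 1397 CPM at ZT0, 696, 892, 952 and 1026 CPM at ZT3 and 499, 895, 1210.2 and 1427 CPM at ZT6. At ZT9 the values were 309, 458, 716 and 1027 CPM, at ZT12 502, 548, 582 and 831 CPM, and at ZT15 234, 545, 669 and 730.4 CPM. They were higher again at ZT18, with 629.9, 695, 949 and 1059 CPM, and at ZT21, with 826, 896, 1096 and 1192 CPM. All 4 mice of ZT0 and of ZT21 were above the 3 lowest mice of ZT12, and above all mice of ZT15. The cosine gave a change from trough to peak of 2.01-fold (amplitude 0.50, SE 0.122, adjusted p = 0.0069 in edgeR), but in the libraries with little muscle RNA it missed the threshold (amplitude 0.50, adjusted p = 0.0739), and beside lane it was lost (amplitude 0.22, adjusted p = 0.845). Within single lanes the adjusted p in edgeR was 0.653 on lane 2, 0.949 on lane 3 and 0.425 on lane 4. With the muscle level as a covariate, Pygl passed on lane 4 (log2 fold change 0.40 from ZT18 to ZT21, adjusted p = 0.0033 in edgeR). Between lanes, time of day and sequencing lane cannot be told apart for Pygl. The test over the time points missed the threshold (edgeR, adjusted p = 0.0624) and passed without ZT9 replicate 1 (0.0193), ZT6 replicate 4 (0.0241) or ZT12 replicate 1 (0.0492). On all 32 libraries it passed in DESeq2 (adjusted p = 0.0230) and in edgeR with scaling by library size alone (0.0425).

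Pygb (chr2:150786735-150831758, plus strand), the brain isoform, was lower than Pygl per kilobase in all 32 libraries, by 1.18- to 9.30-fold, and had a different time course. Its mice had 105, 105, 113 and 140.0 CPM at ZT0, 138, 148, 149 and 150.0 CPM at ZT3 and 139.5, 149, 169.7 and 175 CPM at ZT6. They were highest at ZT9, with 149, 153, 153 and 183 CPM, and then lower at ZT12, with 133, 134, 152 and 158 CPM, and at ZT15, with 118, 121, 130.1 and 138 CPM. At ZT18 they had 94.7, 115, 118 and 118 CPM and at ZT21 102, 119, 124 and 128 CPM. All mice of ZT6 were above all mice of ZT18, and the means of ZT9 and ZT18 were 159.7 ± 15.8 and 112 ± 11.3 CPM (SD, n = 4 each). The cosine was past the threshold in all 42 alternatives, also beside lane (amplitude 0.30, adjusted p = 5.7e-04 in edgeR). On lane 2 it rose by 0.46 on the log2 scale from ZT0 to ZT6 (SE 0.104, adjusted p = 0.0160 in edgeR). The test over lane 2 (adjusted p = 0.0304) was lost without any of 7 of its 12 libraries (ZT0 replicates 1, 2 and 3, ZT3 replicates 3 and 4, ZT6 replicates 3 and 4), with adjusted p up to 0.0939 in edgeR.

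Lights off (ZT12) was set against lights on (ZT0). At ZT12, Gys1 was higher than at ZT0 by 0.36 (log2 fold change, SE 0.0859, adjusted p = 0.0049 in edgeR) and Pygb by 0.32 (SE 0.0983, adjusted p = 0.0277), while Ppp1r3c fell by 1.13 (SE 0.253, adjusted p = 0.0029). These were 3 of the 9 genes, 2 higher and 1 lower, where 15.9% of all genes differed (7.71% higher and 8.15% lower). The median log2 fold change was -0.31 over the 9 genes and 0.0017 over all. The mice of the 2 time points did not overlap for 4 of the 9 genes (Gys1, Gyg, Ppp1r3b and Ppp1r3c), as for 16.3% of all genes. Endothelial marker sums did not overlap either (692.6 to 947.9 CPM at ZT0, 577.8 to 673.4 CPM at ZT12), and their part was not tested. Ppp1r3b (-0.85, SE 0.314) and Pygl (-0.85, SE 0.326) missed the threshold at adjusted p of 0.0658 and 0.0746 in edgeR, and both passed without ZT15 replicate 1 (0.0422 and 0.0425), Pygl also without ZT12 replicate 1 (0.0497). Ugp2 (-0.38, SE 0.143) missed it too (adjusted p = 0.0701 in edgeR), and passed without ZT6 replicate 1 (0.0468), ZT6 replicate 4 (0.0278) or ZT12 replicate 1 (0.0414). The call for Pygb was lost without any of 5 libraries (ZT0 replicates 1, 2 and 3, ZT12 replicates 3 and 4), with adjusted p up to 0.102, with scaling by library size alone (0.0505) and with no filter (0.0553). In the fit of the 8 libraries alone Ppp1r3c passed (adjusted p = 0.0173 in edgeR), Gys1 (log2 fold change 0.36, adjusted p = 0.0718) and Pygb (0.32, adjusted p = 0.106) did not, at nearly the same fold changes, and Ppp1r3b (0.0300) and Pygl (0.0319) did. In the libraries with little muscle RNA none of the 9 passed, with log2 fold changes of 0.44 for Gys1 (adjusted p = 0.130 in edgeR), 0.39 for Pygb (0.155) and -0.86 for Ppp1r3c (0.123); only 366 of all genes passed there.

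**Figure D3:**
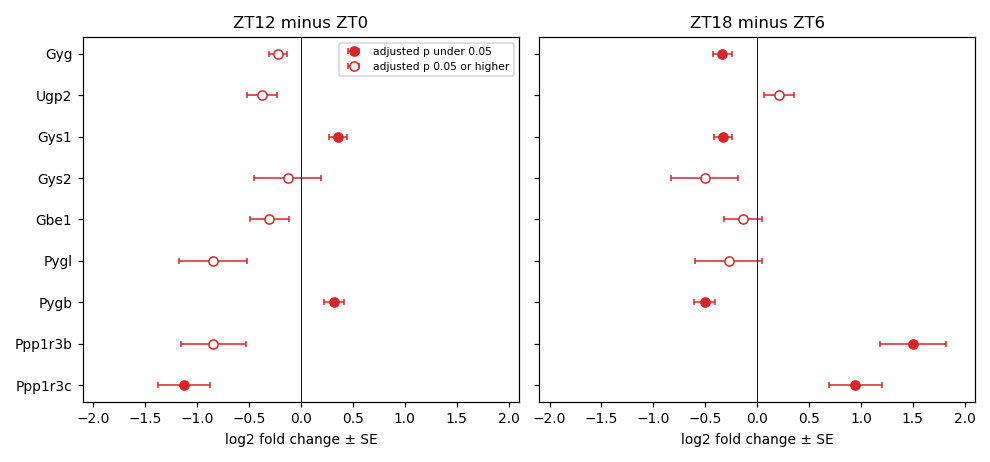
Log2 fold change with bars of ± 1 SE for the 9 genes between ZT12 and ZT0 (left) and between ZT18 and ZT6 (right), from edgeR; filled points had an adjusted p under 0.05. Gys1 and Pygb lie right of 0 on the left (0.36 and 0.32) and left of 0 on the right (-0.33 and -0.51), and Ppp1r3b has the widest change on the right (1.50).

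The middle of the dark phase was then set against the middle of the light phase, with mice that were in neither ZT12 nor ZT0. At ZT18, Ppp1r3b was higher than at ZT6 by 1.50 (log2 fold change, SE 0.319, adjusted p = 0.0018 in edgeR) and Ppp1r3c by 0.95 (SE 0.253, adjusted p = 0.0108). Pygb fell by 0.51 (SE 0.0984, adjusted p = 8.1e-04), Gyg by 0.34 (SE 0.0903, adjusted p = 0.0111) and Gys1 by 0.33 (SE 0.0859, adjusted p = 0.0086). These were 5 of the 9 genes, where 16.9% of all genes differed (8.18% higher and 8.68% lower), and the same 5 did not overlap between the mice of the 2 time points, as for 22.9% of all genes. The PP1 subunits were therefore higher at ZT18, and the synthase Gys1, the primer Gyg and the phosphorylase Pygb lower. The call for Ppp1r3c was lost without ZT18 replicate 1 (adjusted p = 0.0550 in edgeR). In the libraries with little muscle RNA, Ppp1r3b (log2 fold change 1.84), Ppp1r3c (1.21) and Pygb (-0.64) still passed, and Gys1 (-0.40, adjusted p = 0.0883) and Gyg (-0.37, adjusted p = 0.0607) did not. ZT18 and ZT6 were on different lanes, as were ZT12 and ZT0. The mice of ZT18 and ZT6 also did not overlap in white adipocyte markers (143.8 to 243.8 against 45.7 to 77.0 CPM). Nor did they in the mitochondrial share of counts (18.5 to 20.7% against 22.55 to 27.9%). The part of either in these differences was not tested.

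Pairs of isoforms were compared within each library, which does not depend on scaling. The log2 ratio of Pygl to Pygb in CPM was highest at ZT0, at 3.24 ± 0.501, and lowest at ZT9, at 1.84 ± 0.866 (SD, n = 4 each), and it was unequal across the day (permutation test, 1e+05 resamples, F = 3.02, p = 0.0193, adjusted over the 3 ratios 0.0289). The ratio of Ppp1r3b to Ppp1r3c also differed (permutation test, F = 3.53, p = 0.00921, adjusted 0.0276). Its mean was lowest at ZT15, at 2.01 ± 0.263, and highest at ZT18, at 2.73 ± 0.250 (SD, n = 4 each). The mice of ZT15 (1.66 to 2.23) overlapped those of ZT6 (1.81 to 2.38, mean 2.17), so these 2 time points were not ordered. The ratio of Gys2 to Gys1 did not pass (permutation test, F = 1.46, p = 0.231, adjusted 0.231). Within lanes none of the ratios passed after adjustment in the exact permutation test; the lowest p was 0.0362 for Ppp1r3b to Ppp1r3c on lane 3 (adjusted 0.109). Without ZT15 replicate 1 the adjusted p of Ppp1r3b to Ppp1r3c was 0.0510, and that of Pygl to Pygb was 0.0568, 0.0616, 0.0583 and 0.0511 without ZT0 replicate 1, ZT0 replicate 3, ZT9 replicate 4 and ZT21 replicate 4, all by permutation.

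**Figure D4:**
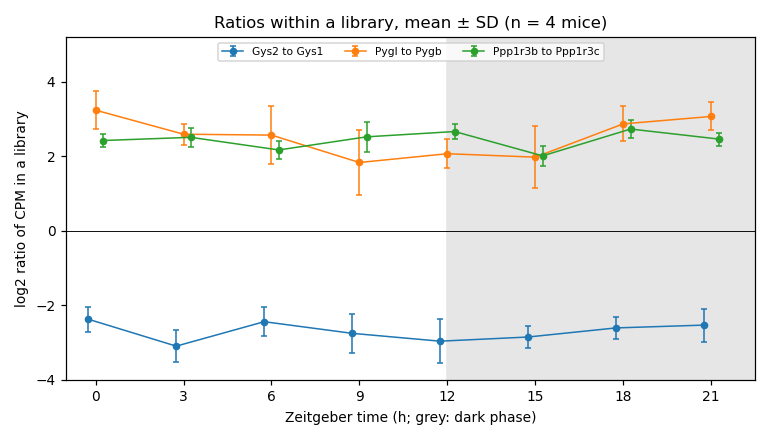
Log2 ratio of CPM of 2 isoforms within a library (mean ± SD of 4 mice) against Zeitgeber time in hours, with the dark phase in grey. Pygl to Pygb went from 3.24 at ZT0 to 1.84 at ZT9, Ppp1r3b to Ppp1r3c dipped to 2.01 at ZT15, and Gys2 to Gys1 stayed below 0 throughout.

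Mice of the same time point also differed from each other in a coordinated way. After removal of the time point means, Gys2 went with Gys1 (Pearson r = 0.58, Spearman rho = 0.55, permutation p = 0.0039 and 0.0060) and with Pygl (r = 0.54, rho = 0.54, permutation p = 0.00299 and 0.00311), each at an adjusted p of 0.0156 over the 8 relations of Gys2. Relations with Gbe1 (r = 0.47), Ugp2 (0.44), Ppp1r3b (0.40) and Pygb (-0.50) passed as well, and those with Gyg and Ppp1r3c did not. The share of all tested genes that relate to Gys2 this closely was not computed. Whether the relations are particular to glycogen genes was therefore not tested. Without the 2 libraries farthest from the median of Gys2 none of the 8 passed after adjustment, although r stayed at -0.48 for Pygb and at 0.50 for Gys1 (permutation p = 0.0194 and 0.0153, both 0.0776 adjusted) and was 0.40 for Pygl. With scaling by library size alone 1 did (Pygb, r = -0.56, adjusted permutation p = 0.0358). On lane 3, which holds the 2 mice with most Gys2 (ZT9 replicate 1 and ZT12 replicate 1), 5 of the 8 passed in the exact permutation test, with r of 0.85 for Gys1 and 0.76 for Pygl, while on lanes 2 and 4 none did (0.15 and 0.65 for Gys1, 0.15 and 0.40 for Pygl).

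The other 28 pairs were added after seeing the data. The closest was that of Gbe1 and Pygl (r = 0.94, rho = 0.93, permutation p = 1e-05, which is the smallest the resamples can give, and 0.00012 adjusted over all 36 pairs). It was 0.90 without the 2 libraries farthest from the median of Gbe1, and 0.91, 0.97 and 0.93 within lanes 2, 3 and 4. The exact permutation p within these lanes was 0.00405, 0.000506 and 0.0174 (adjusted over the 36 pairs 0.036, 0.0091 and 0.125). Ppp1r3b and Ppp1r3c followed (r = 0.85, rho = 0.84, permutation p = 2e-05 and 1e-05, adjusted 0.00018), with 0.81 without the 2 farthest libraries. Within lanes 2, 3 and 4 their r was 0.83, 0.81 and 0.92 (adjusted exact permutation p = 0.0091, 0.0219 and 0.125). Ugp2 went with Gbe1 (r = 0.82; 0.77 without the 2 farthest) and with Pygl (r = 0.76; 0.70 without the 2 farthest), both at a permutation p of 1e-05. Pygb and Pygl were inversely related (r = -0.63, rho = -0.64, permutation p = 0.00029 and 0.00073, adjusted 0.0013), with -0.62 without the 2 libraries farthest from the median of Pygl. Within lanes 2, 3 and 4 their r was -0.64, -0.67 and -0.71, and on no lane did it pass after adjustment (adjusted exact permutation p = 0.350, 0.0654 and 0.195). Ppp1r3b went with Pygl (r = 0.75, rho = 0.71, permutation p = 0.00011 and 0.00021, adjusted 0.00072; 0.62 without the 2 farthest libraries) and with Gbe1 (r = 0.72, adjusted permutation p = 0.00093). Within lanes 2, 3 and 4 the r of Ppp1r3b and Pygl was 0.62, 0.81 and 0.97 (adjusted exact permutation p = 0.392, 0.0453 and 0.125). A mouse with more Pygl than others of its time point thus tended to have more Gbe1, Ugp2 and Ppp1r3b and less Pygb. These members were measured in the same libraries, so their tissue composition was shared. The mouse with the least Pygl also had the highest mitochondrial share of counts of its time point at 4 of the 8 time points, with 27.9% at ZT6, 28.2% at ZT9, 26.7% at ZT15 and 20.7% at ZT18, and not at the other 4. The part of either in the relations was not tested, nor was the share of other gene pairs that relate this closely.

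**Figure D5:**
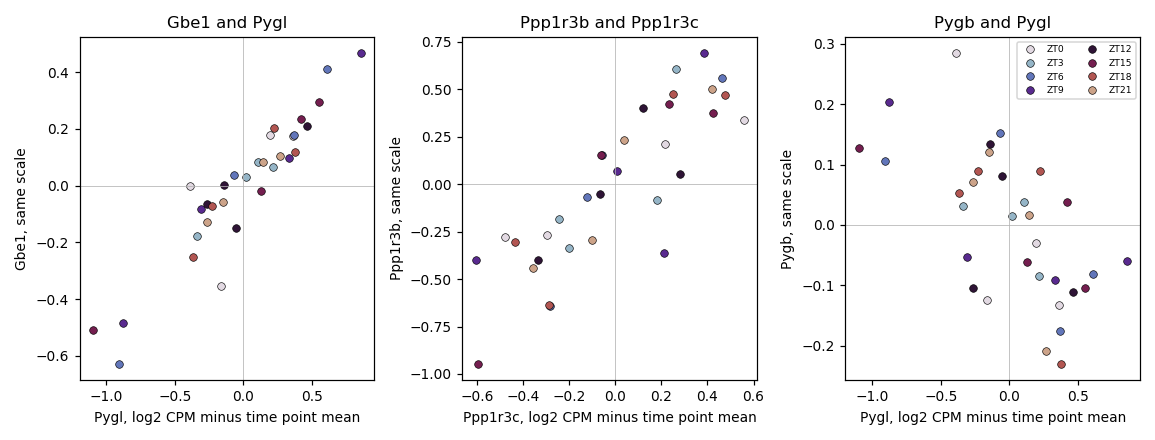
Log2 CPM of 2 genes in each of the 32 mice after subtraction of the time point mean, coloured by time point. Gbe1 lies close to a rising line with Pygl (r = 0.94), Ppp1r3b rises with Ppp1r3c (r = 0.85), and Pygb is lower in mice with more Pygl (r = -0.63).

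Across all 32 libraries, the genes most like each oscillating member were looked up among 13440 genes with a mean of at least 1 CPM. Pygl was followed by Pdhb, a subunit of pyruvate dehydrogenase (r = 0.97), Acaca, which makes malonyl-CoA for fatty acid synthesis (0.96), and Eno1, a glycolytic enolase (0.96). Ppp1r3b was most like Hk2, a hexokinase (0.92), Polr3g (0.92) and Zc3h8 (0.91), and Ppp1r3c was most like Trim65 (0.90), Zc3h8 and Fgfr1op (0.89 each). Among the genes most like Ugp2 were Ank (0.91) and Scd2, a desaturase of fatty acid synthesis (0.90). Gys1 was most like Acsl1, an acyl-CoA synthetase, Gpat4, an enzyme of glycerolipid synthesis, and Arsb (0.88 each), Pygb most like Cul7 (0.89), Sgsm2 (0.87) and Pacs1 (0.87), and Gyg most like Arl8b (0.79), Eda (0.77) and Npnt (0.76). These are descriptions over libraries that share time of day, lane and mouse.

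Of 24 other glycogen genes, all tested, 10 oscillated by JTK and 11 had a 24 h cosine in edgeR, against 36.4% and 36.1% of all genes, with a median amplitude of 0.17. Ppp1r3d, another PP1 targeting subunit, was lower at ZT12 than at ZT0 (log2 fold change -0.65, SE 0.193, adjusted p = 0.0225 in edgeR) and higher at ZT18 than at ZT6 (0.56, SE 0.193, adjusted p = 0.0439), the same directions as Ppp1r3c. Ppp1cb, a catalytic subunit of PP1, was also lower at ZT12 (-0.42, SE 0.102, adjusted p = 0.0056). Epm2a, the phosphatase laforin, had its fitted peak at ZT8.10 (amplitude 0.23, adjusted p = 0.0011 in edgeR). Ppp1r3g, a PP1 targeting subunit known for its response to fasting in liver, peaked at ZT7.25 (0.70, adjusted p = 0.0082 in edgeR), but had only 204 counts over all libraries (0 to 49 per library) and was not called by JTK (exact P = 0.188). Beside lane, the cosine was kept by 3 of the 24, among them Epm2a and Ppp1r3g, against 17.2% of all genes. Of the kinases that phosphorylate the synthase, Gsk3a was higher at ZT12 than at ZT0 (0.23, adjusted p = 0.0394), and Gsk3b was higher at ZT18 than at ZT6 (0.64, adjusted p = 0.0337 in edgeR) and was the 1 gene of the 24 called on lane 4 (-0.34 from ZT18 to ZT21, adjusted p = 0.0494). The widest fitted amplitudes of the 24 were those of Ppp1r3a (1.35) and Pygm (0.86), the muscle subunit and muscle phosphorylase, singled out after seeing their values; neither passed (adjusted p = 0.603 and 0.590 in edgeR). The counts per library ran from 0 to 447 for Ppp1r3a and from 112 to 6301 for Pygm.

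Genes of glucose entry and release (transporters, hexokinases, and the enzymes and transporter that free glucose from glucose 6-phosphate) were set beside them. Of 8 such genes 7 were tested, 5 had a cosine in edgeR, against 36.1% of all genes, and 4 were higher at ZT18 than at ZT6, against 8.18% of all genes. The 1 that was lower was Hk1, another hexokinase, which fell by 0.50 (log2 fold change, SE 0.145, adjusted p = 0.0183 in edgeR). Among those that were higher, G6pc3, a glucose 6-phosphatase, rose by 0.19 (SE 0.0667, adjusted p = 0.0468 in edgeR). Hk2 rose by 1.18 (log2 fold change, SE 0.311, adjusted p = 0.0098 in edgeR) and Slc2a4, the insulin-responsive glucose transporter, by 0.61 (SE 0.192, adjusted p = 0.0288). Their fitted peaks were at ZT18.2 and ZT18.3, beside ZT18.7 for both PP1 subunits, and both kept their cosine beside lane (adjusted p = 2.3e-04 and 0.0192 in edgeR). The time courses were compared by their fitted values only.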

How the data were processed

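RNA from iBAT of 32 mice was sequenced. The authors aligned the reads to mm10 with GSNAP, counted them per Ensembl gene with HTSeq (0.6.1) and deposited raw counts, with no normalization; the strand setting of the counting is not given in the sources used here. The samples were grouped by the Zeitgeber time in their labels, and the lane was read from the labels too. Counts were fitted with edgeR 4.0.16 in R 4.3.3 (quasi-likelihood test, TMM factors, filterByExpr with the time point as group, BH over 15505 genes), and DESeq2 1.42.0 was an alternative. The JTK test was an own implementation on TMM-scaled CPM with 15 templates, and JTK and edgeR scripts were tested on simulated data with known changes. Ratios and relations used log2 CPM with a prior count of 2 and 1e+05 resamples (numpy 2.4.6, scipy 1.17.1), all two-sided. Levels per kilobase divide CPM by the exonic length in GENCODE (GRCm38). Coordinates of genes are from that annotation.

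All 9 genes were named, other glycogen genes where they passed a test, and for each oscillating gene the 3 genes with the highest Pearson r. Some genes that this rule takes are not reported here. The members and lists were chosen with earlier results of these data known. The alternatives were other scalings, filters and tools, a replicate block, lane as a factor, and leaving out each library; those on skeletal muscle RNA and on the 28 further gene pairs were chosen after seeing the data. Among the 48 pairs of libraries of 1 time point none agreed within counting noise (lowest mean chi-square per gene 7.63). The sources name no separate cages or batches of mice, so p-values measure the spread between these mice. No library was left out of the reported values.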

Additional observations from a re-analysis of the deposited data

Results flagged for a closer look

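In 3 of the 72 groups of 4 mice examined (9 genes at 8 time points), 1 mouse lay far from the others, by Dixon's criterion on the ratio of the gap to the range. Chance alone flags about 1 in 20 groups, which is 3.6 of 72. Gys1 at ZT9 was 284 CPM in replicate 3, where the nearest mouse had 346 CPM (ratio 0.867). Pygb at ZT9 was 183 CPM in the same replicate 3, with the nearest mouse at 153 CPM (ratio 0.885). This library had the highest blood (1213 CPM) and macrophage (264 CPM) marker sums and the highest mitochondrial share of counts (28.2%) of all 32. It also had the lowest sum of the 9 genes (1771 CPM, relative to the unscaled library total like the marker sums). The part of these features in its Gys1 and Pygb values was not tested. Pygb at ZT18 was 94.7 CPM in replicate 1, with the nearest at 115 CPM (ratio 0.877).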

How the results depend on the processing

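The counts of calls among the 9 genes that changed are given here, large or small. With lane as an additive factor, 4 genes kept a 24 h cosine in place of 7. In the libraries under 1000 CPM of muscle markers, 6 genes in place of 7 had a cosine, 3 in place of 6 differed between time points, 0 in place of 3 between ZT12 and ZT0, 3 in place of 5 between ZT18 and ZT6, and 0 in place of 1 on lane 3; the set holds 17 libraries in place of 32, with 1 at ZT15, so the lane 3 value says nothing of a rise there. On lane 3, DESeq2 called 3 and the fit of all 32 libraries called 3 in place of 1, and on lane 4 the muscle marker covariate gave 2 in place of 0. Between time points, DESeq2 and library size alone called 7 and no filter 5 in place of 6; between ZT12 and ZT0, library size alone and no filter called 2 in place of 3; on lane 2, DESeq2 called 4, and library size alone and the muscle covariate 2, in place of 3. For the isoform ratios, 0 in place of 2 passed within lane 2, within lane 3 and within lane 4. For Gys2, 1 relation in place of 6 passed with library size alone, 0 within lane 2, 5 within lane 3, 0 within lane 4, and 0 without the 2 libraries farthest from the median. The relation of Gys2 with Gbe1 turned to r = -0.012 within lane 2, and that of Gys1 with Gbe1 (0.47 over all mice) to r = -0.29 within lane 4. The cause of these changes was not tested.

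Leaving out 1 library at a time gave 7 to 8 genes by JTK, 7 to 8 by cosine, 5 to 7 between time points, 2 to 5 between ZT12 and ZT0 (5 without ZT12 replicate 1 or ZT15 replicate 1), 4 to 5 between ZT18 and ZT6, 2 to 4 on lane 2, 1 to 2 on lane 3 (2 without ZT15 replicate 1) and 0 on lane 4. It gave 1 to 2 ratios and 3 to 6 relations of Gys2 (3 without ZT9 replicate 1 or ZT12 replicate 1).

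Same-numbered mice shared only a number (mean r of their deviations -0.033, from -0.73 to 0.77 over 112 pairs). With the replicate number as a block the counts of the 9 genes stayed at 7 by cosine, 6 between time points, 3 between ZT12 and ZT0, 5 between ZT18 and ZT6, 3, 1 and 0 on lanes 2, 3 and 4, and 2 ratios; over all genes the block gave 101 in place of 276 on lane 3 and 72 in place of 624 on lane 4.

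Over all genes, counts moved by more than 1.5 times with the low-muscle libraries (3306 by JTK, 2863 by cosine, 1548 between time points, 366 between ZT12 and ZT0, 1179 between ZT18 and ZT6), with lane as a factor (2661 by cosine), with the 8 libraries alone (1259 between ZT12 and ZT0), without ZT18 replicate 2 (1733 in place of 2615 between ZT18 and ZT6), and on lanes 2, 3 and 4, where leaving out a library gave 883 to 3292, 55 to 386 and 146 to 624, DESeq2 2957, 823 and 983, the fit of all libraries 3049, 921 and 320, and the low-muscle libraries 1109, 0 and 4, against 1959, 276 and 624; the muscle covariate gave 86 on lane 3 and 999 on lane 4. Changes between lanes cannot be separated from sequencing lane, and 4 mice per time point limit the precision for genes as variable as Gys2.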
